A study of Sus scrofa with 40 samples.

Results

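Liver and backfat were compared in pigs with free access to feed, 10 arrays of each tissue out of the 40 arrays of the study. Members were the 20 arrays whose names carry liver or fat together with ad libitum, and every non-control probe set of the array was tested. The animals were 6 months old gilts of the Yorkshire breed from lines with low or high residual feed intake (RFI, the feed an animal eats beyond what its growth and maintenance predict), 5 arrays per line and tissue. Low RFI pigs are the efficient line. Per the labels the pigs were genotyped before the experiment and only heterozygotes for a variant of MC4R, a brain receptor in appetite control, were used, so all groups share that genotype (the label of 1 low RFI liver array names it less exactly). The fat was the middle layer of backfat at the 10th rib, and both tissues were whole pieces that hold several cell types. The other 20 arrays, used for a contrast at the end and for a few values before it, came from pigs of the same lines fed at 80% of maintenance for 8 days. Labels number the arrays within each group, and p-values measure the spread between those samples.

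The liver makes most proteins of blood plasma, disposes of nitrogen as urea, makes bile acids, exports glucose and oxidises foreign compounds. Backfat stores fat as triglyceride in adipocytes and releases it as fatty acids by lipolysis. In pigs adipose tissue, more than liver, is the main site of fatty acid synthesis, so enzymes of lipid synthesis need not be liver enzymes. Adipocytes lie in a collagen-rich stroma with vessels, and backfat borders on skeletal muscle.

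Each array is an Affymetrix pig array, and a level here is the log2 of its deposited intensity. Of 24123 probe sets, 124 controls were left out and 23999 were tested, of which 10069 carried 1 gene symbol and stood for 6765 genes, each gene being read from its brightest such probe set. Every array had been scaled to the same 2% trimmed mean (500.09 to 500.15), but the median intensity was lower in liver (126.8 to 153.0) than in fat (157.1 to 179.9), a log2 difference of -0.22 (permutation p = 2e-05, the smallest those resamples can give; 6e-05 adjusted over 3 measures). The log2 of the 3' to 5' ratio of the actin control, a sign of RNA quality, did not pass the test between tissues (adjusted permutation p = 0.81). Nor did that of GAPDH (0.264). The actin ratio separated 2 sets of arrays. On the log2 scale numbers 1 and 2 had 2.32 ± 0.298 (SD, n = 4) in liver and 2.19 ± 0.306 in fat. Numbers 3 to 5 had 1.36 ± 0.151 (n = 6) and 1.53 ± 0.222 on that scale. Each set held both tissues and both lines.

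The tissue labels matched the markers of their main cells. The mean of 23 hepatocyte markers ran from 13.88 to 14.22 in liver and from 4.81 to 5.90 in fat, and the mean of 14 adipocyte markers ran from 10.41 to 10.89 in fat and from 5.19 to 6.27 in liver. A signal at or below the 40th percentile of its array (6.18 to 6.60 in liver, 6.52 to 6.75 in fat) is called background here. Skeletal muscle was the exception to uniform tissue: the mean of 25 muscle markers was 11.32, 11.39 and 11.53 on the low RFI fat arrays 2, 3 and 4, where all 25 markers were above background, and 7.22 to 8.58 on the high RFI fat arrays 3, 4 and 5. The other 4 fat arrays had 5.55 to 6.50, near the 5.13 to 5.70 of the liver arrays. They may still carry some muscle signal: the muscle gene TNNC2 was at 4.59 to 7.82 on them and at 0.79 to 4.36 in liver. The tissue contrast was also fitted without those 6 fat arrays, and values from that fit are given for the overall counts and beside several of the results that follow. All 49 gene lists and 125 named genes were read from that fit too. Of those genes, 113 kept their direction and their side of the threshold in it and in every other setting. The part of muscle signal in other single genes and in the contrast of diets was not tested.

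Liver and fat differed in most of what the array measures: 13662 probe sets passed an adjusted p of 0.05 (56.9% of those tested, limma with Benjamini-Hochberg adjustment over all 23999). Of these, 5099 were higher in liver (21.2%) and 8563 were higher in fat (35.7%). At a difference of at least 4-fold the numbers were closer, 1213 in liver (5.05%) and 1614 in fat (6.73%), and beyond 64-fold they turned round, 247 in liver against 62 in fat. Among the 6765 named genes, 1890 were higher in liver (27.9%) and 2611 in fat (38.6%), with 462 (6.83%) and 421 (6.22%) at 4-fold or more. All 10 liver arrays lay above all 10 fat arrays for 931 named genes (13.8%), and the reverse held for 1209 (17.9%). The median difference over all probe sets was -0.17 and followed the scaling: with quantile normalization 6056 were higher in liver and 7462 in fat, and with each array centred on its median 6804 and 6619. Without the 6 fat arrays that carry muscle signal 4281 probe sets were higher in liver and 7160 in fat.

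**Figure D1:**
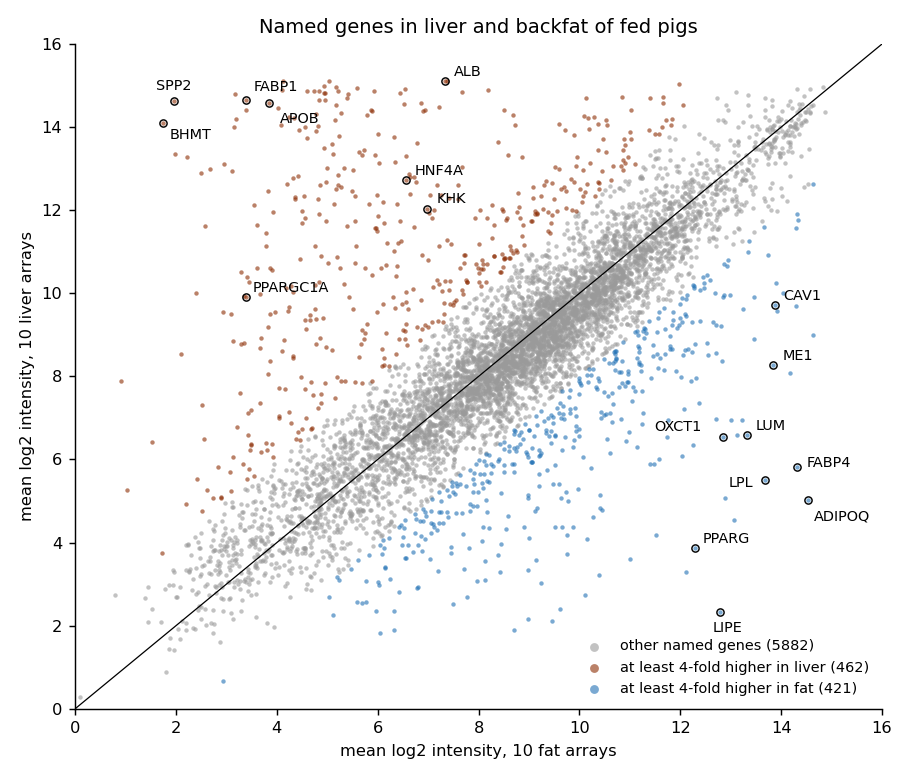
Mean log2 intensity of each named gene in fat (x axis) against liver (y axis), 10 ad libitum arrays per tissue, with genes past an adjusted p of 0.05 and 4-fold coloured by the tissue in which they were higher. The liver side reaches farther from the diagonal (SPP2, BHMT, FABP1) than the fat side (LIPE, ADIPOQ, PPARG).

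A fold against a tissue without signal is a bound. Where a gene was at background on all 10 arrays of the dimmer tissue, its bright mean was divided by that tissue's background level and is given as "at least". On that footing 464 probe sets were above background on all liver arrays and on no fat array, 348 on all fat arrays and on no liver array, 10462 on all 20 and 5591 on none. In whole tissue, fewer cells of a type and less RNA per cell cannot be told apart.

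Plasma proteins were among the widest differences toward liver. SPP2, a secreted phosphoprotein of plasma and bone, was at 14.39, 14.65 and 14.86 in liver (lowest, median and highest of 10 arrays) and at 1.20, 1.93 and 2.80 in fat. It was at least 251-fold higher in liver (adjusted p = 1.47e-24), and no fat array came near any liver array. Of 26 carrier proteins and protease inhibitors measured, 24 were higher in liver and 2 in fat, with a median log2 difference of 7.74, or 7.67 with genes at background set to their bound, against -0.13 over all named genes. Albumin (ALB), the main carrier of plasma, differed by 7.78 (SE 0.235, adjusted p = 4.97e-18), with 14.88 to 15.38 in liver and a measurable 6.22 to 8.54 in fat. Transthyretin (TTR), which carries thyroid hormone, was at least 303-fold higher in liver, and GC, the vitamin D binding protein, at least 320-fold. The lipoprotein-bound paraoxonase PON3 was 1 of the 2 read as higher in fat (-0.77), and that call was lost without any 1 of 14 of the 20 arrays.

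The other one was orosomucoid (ORM1), and it turned on the probe set. Its probe set with the highest mean over both tissues had 8.27 to 10.26 in liver and 8.99 to 10.59 in fat (-0.53, SE 0.216, adjusted p = 0.0417), with overlapping tissues, a call that was lost without any 1 of 11 arrays and with either other scaling. A second ORM1 probe set had 14.42 to 14.92 in liver and 0.73 to 2.97 in fat, the largest difference of all probe sets tested (13.01, SE 0.195, adjusted p = 2.76e-23). A further set differed by 1.08 (adjusted p = 0.0965). Of the 2261 genes with several probe sets, 115 had probe sets called in opposite directions, so ORM1 was 1 of a minority.

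Clotting genes were found on both sides. Of 16 coagulation and fibrinolysis genes measured, 10 were higher in liver and 5 in fat, with a median of 5.29 (4.64 with bounds). Plasminogen (PLG), the precursor of the clot-dissolving enzyme, had 14.61, 14.80 and 14.93 in liver and 1.67, 2.92 and 5.51 in fat, at least 282-fold. The fibrinogen gamma chain (FGG) was at least 297-fold higher in liver, factor IX (F9) at least 224-fold, heparin cofactor SERPIND1 at least 187-fold and protein C (PROC) at least 164-fold. The 5 genes higher in fat encode proteins known from vessel walls and stroma: tissue factor F3 (-5.56), the platelet-binding VWF (-3.26, SE 0.21, adjusted p = 4.88e-12), the plasminogen activators PLAT (-3.58) and PLAU (-2.89), and factor VIII (F8, -0.77). PLG and its 2 activators stood on opposite sides. Fat was also at least 86.5-fold higher in F2RL2, a thrombin receptor of the protease-activated family, at 12.33 to 13.18 against 3.46 to 5.86 in liver.

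Complement followed the same line. Of 23 components, 19 were higher in liver (median 3.96), from the terminal proteins C8A (at least 140-fold) and C8G (at least 102-fold) to C3 (6.71) and C1S (1.49). The 4 higher in fat were factor D (CFD, -1.58, SE 0.0945, adjusted p = 1.35e-12), a protease that adipocytes are known to secrete, and the membrane inhibitors CD59 (-2.15), CD55 (-1.16) and CD46 (-0.40). CFD read 10.0 to 10.69 in liver and 11.69 to 12.32 in fat, so it was far above background in both tissues. Of 14 acute phase proteins 12 were higher in liver, with haptoglobin (HP) at 14.77 to 15.33 against 2.44 to 7.69. C-reactive protein (CRP) was at least 63.5-fold higher and hepcidin (HAMP), the hormone that limits iron uptake, at least 39.5-fold, whereas SAA2 did not pass the test (-0.18).

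**Figure D2:**
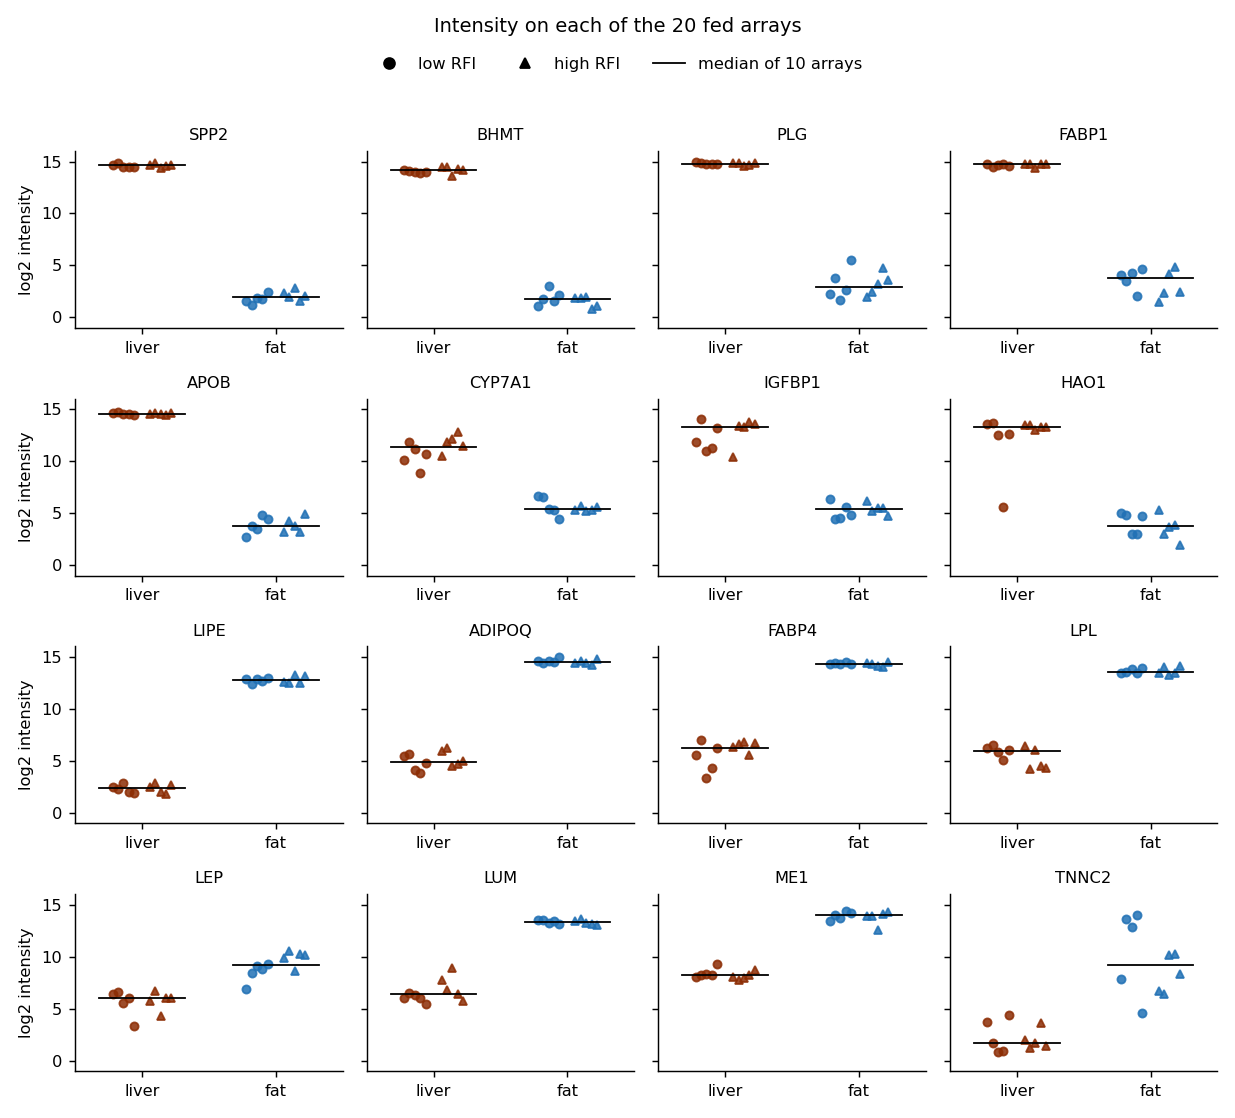
Log2 intensity of 16 genes on each of the 20 arrays (circles low RFI, triangles high RFI, a line at the median of each tissue). SPP2, BHMT and APOB are tight in liver, while CYP7A1 in liver spans 8.89 to 12.79, 1 liver array of HAO1 stands at 5.63, and TNNC2 in fat spans 4.59 to 13.99.

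Lipoprotein genes were split between export and uptake. Of 21 measured, 15 were higher in liver and 3 in fat, with a median of 4.89 (3.35 with bounds). Apolipoprotein B (APOB), the structural protein of very low density particles, had 14.42, 14.56 and 14.76 in liver and 2.70, 3.73 and 4.92 in fat, at least 242-fold. APOA2 was at least 255-fold higher in liver, APOC2 at least 216-fold, and MTTP, which loads lipid onto APOB, at least 40.6-fold. APOE differed far less (0.84), since fat held 13.18 to 14.24 of it. The 3 higher in fat were lipoprotein lipase (LPL), which frees fatty acids from those particles, at least 149-fold, the receptor VLDLR (-2.69) and APOD (-5.51). APOC2, the activator of LPL, and LPL itself stood at the far ends of opposite sides.

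Bile acid genes were mostly higher in liver. Of 13 measured, 11 were higher in liver and 1 in fat (median 3.53, or 3.25 with bounds). CYP7A1, the rate-limiting enzyme of bile acid synthesis, had 8.89, 11.32 and 12.79 in liver and 4.45, 5.38 and 6.66 in fat, at least 22.5-fold, with a wide spread between livers. The uptake carrier SLC10A1 was at least 165-fold higher and the export pump ABCB11 at least 31.7-fold. CYP8B1, which sets the hydroxylation of bile acids, did not pass the test (0.47). ABCC6 was the 1 higher in fat, at 4.88 to 6.79 in liver and 5.70 to 7.36 in fat (-0.79, adjusted p = 0.00702). It was near background in both tissues, and its call was lost on the arrays numbered 1 and 2 alone and with the mean over its probe sets.

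Nitrogen disposal was almost wholly on the liver side. Of 8 urea cycle and ammonia genes, 7 were higher in liver and none in fat. CPS1, the entry step of the cycle, had 13.98, 14.19 and 14.63 in liver and 2.64, 4.51 and 6.24 in fat, at least 191-fold, and arginase ARG1, the last step, was at least 136-fold higher. The downstream enzymes ASS1 (5.91) and ASL (3.97) were also measured in fat. Glutamine synthetase (GLUL), which fixes ammonia in many tissues, did not pass the test, at 12.21 to 13.83 in liver and 12.88 to 13.82 in fat (-0.22, SE 0.158, adjusted p = 0.255).

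Enzymes that break down amino acids went with them. Of 27 measured, 24 were higher in liver (median 4.71, or 3.37 with bounds). BHMT, which remethylates homocysteine with betaine, had 13.56, 14.17 and 14.51 in liver and 0.84, 1.81 and 3.06 in fat, at least 177-fold (adjusted p = 8.15e-23). HPD and TAT of tyrosine breakdown were at least 105-fold and at least 81.8-fold higher. The 3 higher in fat were MAT2A (-0.47), alanine transaminase GPT (-1.12) and DDO (-1.60), an oxidase of acidic D-amino acids. Branched-chain amino acid breakdown was divided, with 9 of 18 higher in liver and 6 in fat, against 27.9% and 38.6% of all named genes. With either other scaling, or without the fat arrays with muscle signal, 5 were higher in fat. The first step of this breakdown was a fat gene: BCAT2, the mitochondrial transaminase, differed by -2.46. Later steps such as MUT (1.33) and IVD (1.0) were higher in liver.

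Sugar metabolism was parted by direction. Of 16 genes of gluconeogenesis and glycogen, 9 were higher in liver and 5 in fat (median 1.46), while of 19 glycolytic genes 14 were higher in fat and only KHK, the fructokinase that feeds fructose into the pathway, was higher in liver (5.06, SE 0.0992, adjusted p = 2.5e-21). PCK1, which makes phosphoenolpyruvate, had 12.79, 13.43 and 13.93 in liver and 8.28, 10.13 and 13.07 in fat (2.86, SE 0.464, adjusted p = 1.36e-05). The tissues overlapped, and fat was the more variable. Pyruvate carboxylase (PC), the first step of gluconeogenesis and a supplier of citrate for fat synthesis, was higher in fat (-2.36, SE 0.203). Aldolase ALDOC was the strongest glycolytic fat gene, at 12.75 to 13.52 against 6.40 to 7.52 in liver (-6.28, SE 0.122, adjusted p = 2.38e-21). The glycolytic ENO3, at least 5.83-fold higher in fat, is a muscle form, and without the 6 fat arrays with muscle signal 10 glycolytic genes were higher in fat. GAPDH itself did not pass the test (0.10).

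Where a step has a liver form and a form of other tissues, the pair usually split. Both forms were measured for 8 of 18 pairs, and in 6 the liver form was higher in liver and the other form in fat. Of glucose transporters, SLC2A2 differed by 7.37 and the insulin-regulated SLC2A4 by -2.49. Of fructose bisphosphatases, FBP1 differed by 4.07 (SE 0.0943) and FBP2 by -3.73 (SE 0.38). The fatty acid binding proteins were the widest pair, with FABP1 at 14.35 to 14.79 in liver and 1.49 to 4.87 in fat (at least 259-fold), and FABP4 at 3.35 to 6.99 and 14 to 14.49 (-8.49, SE 0.303). CPT1A, which admits fatty acids to mitochondria, differed by 0.96 and its muscle form CPT1B by -2.04, and the methionine adenosyltransferases MAT1A and MAT2A by 8.50 and -0.47.

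The glycogen phosphorylases split too, but the call of the muscle form did not hold in every setting. PYGL differed by 1.60 and the muscle form PYGM by -1.70 (adjusted p = 0.0123), and PYGM read 0.27 without the 6 fat arrays with muscle signal, -0.29 without the 3 with most and -0.80 (adjusted p = 0.429) on the arrays numbered 1 and 2 alone. Both phosphofructokinases PFKL (-0.79) and PFKP (-0.89) were higher in fat, and both arginases ARG1 (9.15) and ARG2 (4.47) in liver. The PFKL call did not hold without those 6 fat arrays, nor the calls of PFKP and MAT2A on the arrays numbered 1 and 2 alone.

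**Figure D3:**
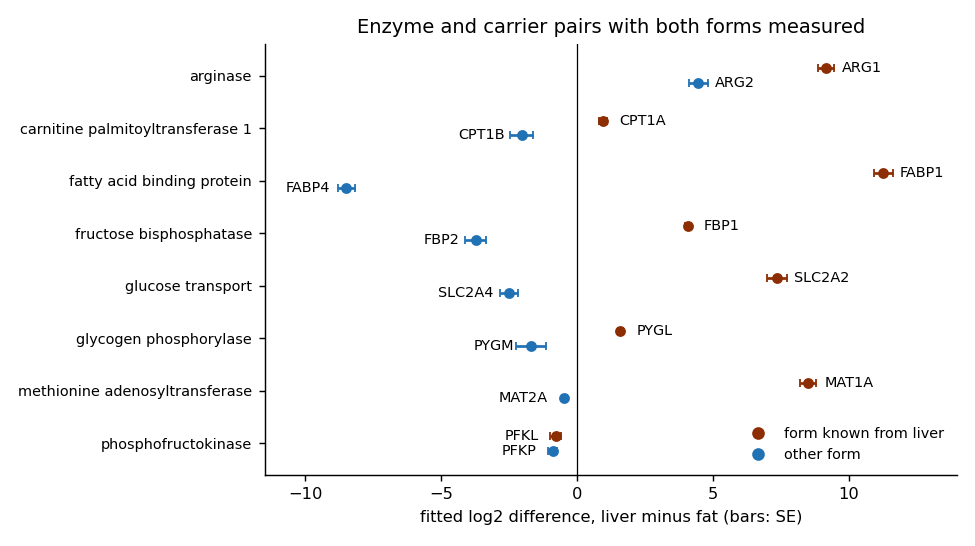
Fitted log2 difference, liver minus fat, ± SE (n = 10 arrays per tissue) for the liver form and the other form of 8 enzyme or carrier pairs. The members of 6 pairs lie on opposite sides of 0, with FABP1 and FABP4 the farthest apart, whereas the PFKL pair lies left of 0 and the ARG1 pair right of it.

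Oxidation of foreign compounds and hormones was a liver property. Of 22 cytochrome P450 and flavin oxidase genes, 18 were higher in liver and 1 in fat (median 4.52, or 3.43 with bounds). CYP3A39, of the main drug-oxidising family, had 14.70 to 15.46 in liver and 2.48 to 5.93 in fat, at least 352-fold, and CYP2E1, which oxidises ethanol, was at least 287-fold higher. The 2 monoamine oxidases parted: MAOB was at least 100-fold higher in liver, while MAOA was 10.52 to 11.56 in liver and 11.25 to 12.13 in fat (-0.37, adjusted p = 0.0163), a call that was lost with median centring (adjusted p = 0.36). Of 25 conjugating and detoxifying enzymes 23 were higher in liver (median 2.47). They ran from glutathione transferase GSTA1 (at least 290-fold) and the estrogen sulfotransferase SULT1E1 (at least 76.1-fold) to ADH5 (0.90), with MGST3 alone higher in fat (-0.49).

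On the fat side, genes of the adipocyte came first. LIPE, the hormone-sensitive lipase, had 12.40, 12.76 and 13.29 in fat and 1.80, 2.39 and 2.83 in liver, the widest difference toward fat of all probe sets (-10.44, SE 0.168, adjusted p = 7.33e-23), or at least 80.5-fold. Adiponectin (ADIPOQ), the most abundant adipocyte hormone, had 14.18, 14.51 and 14.99 in fat and 3.79, 4.86 and 6.26 in liver, at least 274-fold. PPARG, the master regulator of adipocytes, was at least 57.8-fold higher in fat, and the lipid droplet protein CIDEA at least 33.3-fold. Leptin (LEP), the satiety hormone, varied more, at 6.87, 9.20 and 10.57 in fat and 3.31, 6.02 and 6.65 in liver (-3.54, SE 0.396, adjusted p = 6.2e-08), without overlap. Of 14 adipocyte markers measured, 12 were higher in fat (median -4.04, or -3.51 with bounds). RETN (-0.36) and ADRB3 (0.22) did not pass.

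Lipolysis leaned to fat. Of 15 genes 11 were higher in fat and 2 in liver. Down the pathway, PNPLA2, which removes the first fatty acid, differed by -3.04 (SE 0.152), LIPE by the value above and MGLL, which removes the last, by -5.02 (SE 0.12), with MGLL at 11.93 to 12.79 in fat and 6.99 to 7.96 in liver. The adenosine receptor ADORA1, which restrains lipolysis, was at least 9.86-fold higher in fat, while another restraining receptor, ADRA2A (0.73), and the stimulatory G protein GNAS (0.81) were higher in liver. GNAS passed narrowly, and its call was lost without any 1 of 4 single arrays. Without the 3 fat arrays with most muscle signal, or without 6, neither ADRA2A nor GNAS was called higher in liver. For uptake and binding of fatty acids, 9 of 15 were higher in fat. FABP5 had 13.88 to 14.58 in fat and 7.64 to 8.50 in liver (-6.08, SE 0.0892, adjusted p = 1.9e-23), caveolin CAV1, of the membrane pits of adipocytes, differed by -4.16, and GPIHBP1, which anchors LPL to capillaries, by -2.95.

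Fatty acid synthesis was divided. Of 22 genes measured, 10 were higher in liver and 8 in fat, against 27.9% and 38.6% of all named genes, so the fat share was near that of all genes. The median was 0.29, or 0.0 with bounds. Without the 6 fat arrays with muscle signal 7 were higher in liver and 8 in fat. The 8 of the main fit included the steps that build the chain. Fatty acid synthase (FASN) had 13.63, 14.18 and 14.47 in fat and 10.88, 12.29 and 13.01 in liver (-1.90, SE 0.23, adjusted p = 2.23e-07). Malic enzyme (ME1), which supplies NADPH for it, had 12.59, 13.95 and 14.35 in fat and 7.71, 8.23 and 9.24 in liver (-5.58, SE 0.195). Acetyl-CoA carboxylase (ACACA) differed by -2.80 (SE 0.491) with overlapping tissues, the citrate carrier SLC25A1 by -1.21, the elongase ELOVL6 by -2.0 and the desaturase SCD by -1.08. In liver the desaturases of polyunsaturated fatty acids were higher, FADS1 by 4.28 and FADS2 at least 4.85-fold, as was FADS6 (5.55). Of 10 NADPH-supplying genes, 8 were higher in fat, with PGD at -3.05, and only the mitochondrial IDH2 was higher in liver (1.96).

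Triglyceride assembly was mixed, with 12 of 21 genes higher in fat and 6 in liver, against 38.6% and 27.9% of all named genes. Paralogues took opposite sides: LPIN2 (4.89) and LPIN1 (-2.08), AGPAT2 (1.98) and AGPAT1 (-4.03), and CIDEB (at least 49.6-fold in liver) and CIDEA. DGAT2, the last step, had 13.13 to 14.13 in fat and 11.32 to 12.49 in liver (-1.63, SE 0.152). GPAM, the first step in mitochondria, was higher in liver (2.85).

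Burning of fatty acids leaned to liver by smaller steps. Of 32 oxidation genes 19 were higher in liver and 5 in fat, with a median of 0.75. The peroxisomal ACOX2, which shortens bile acid side chains, differed by 3.53, ACAD11 by 2.42 and the medium-chain dehydrogenase ACADM by 1.27. The ketone body enzymes parted, with BDH1, which makes hydroxybutyrate, at least 6.12-fold higher in liver and OXCT1, without which a tissue cannot use ketones, at 12.39 to 13.26 in fat and 6.01 to 7.18 in liver (-6.29, SE 0.149, adjusted p = 6.59e-20). Cholesterol synthesis was higher in liver in 13 of 15 genes and in fat in none, with a median of 1.73. TM7SF2, a sterol reductase, led it (5.01), squalene epoxidase SQLE followed (3.36), and HMGCS1 (1.82) overlapped between tissues.

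**Figure D4:**
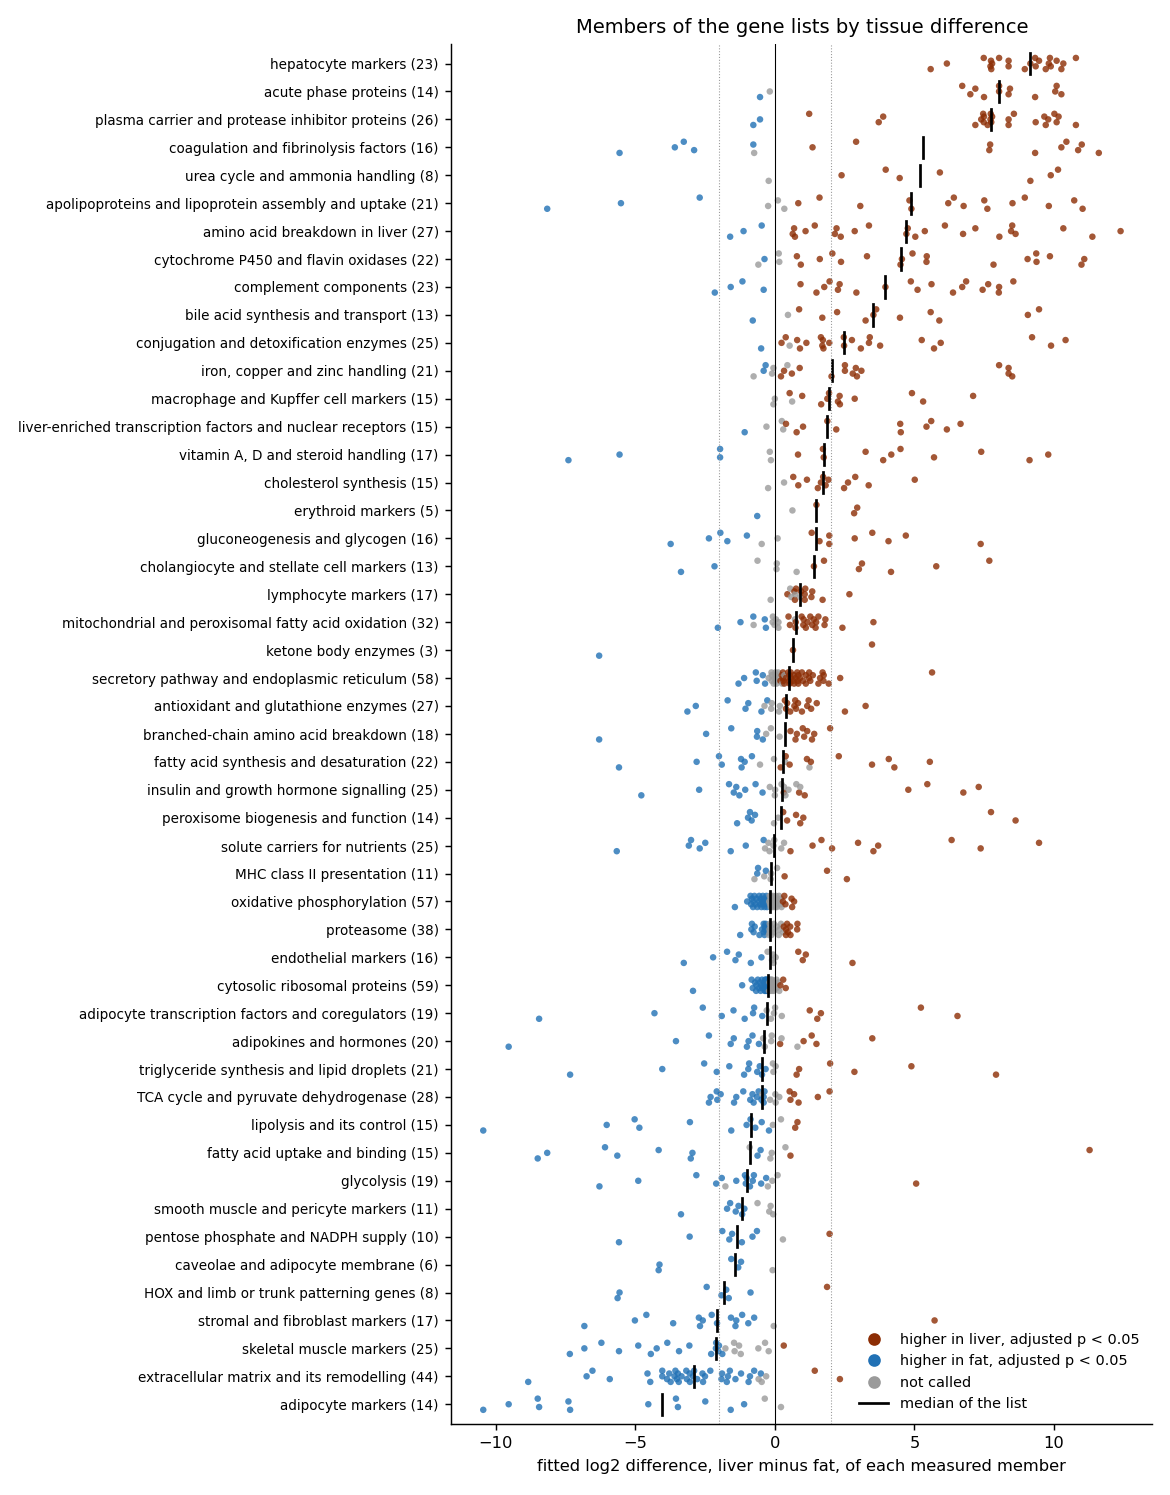
Fitted log2 difference, liver minus fat, of every measured member of 49 gene lists, coloured by call at an adjusted p of 0.05, with the median of each list in black and dotted lines at -2 and 2. Hepatocyte, acute phase and plasma protein genes lie far to the right, adipocyte and matrix genes to the left, and ribosomal, proteasome and oxidative phosphorylation genes close to 0.

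Matrix and stroma formed the broadest fat group. Of 44 genes of the extracellular matrix and its remodelling, 39 were higher in fat and 2 in liver, with a median of -2.91 (-2.68 with bounds), and those counts were the same without the 6 fat arrays with muscle signal. Lumican (LUM), a proteoglycan of collagen fibres, had 13, 13.32 and 13.57 in fat and 5.39, 6.38 and 8.90 in liver (-6.74, SE 0.262, adjusted p = 5e-16). COL15A1 of basement membrane differed by -6.53 (SE 0.118), decorin (DCN) by -4.03 (SE 0.121), and the elastic-fibre protein MFAP5 was at least 51.0-fold higher in fat. COL3A1 did not pass the test (-0.47). The 2 higher in liver were fibronectin (FN1, 1.43, SE 0.0808), which liver also secretes into plasma, at 14.55 to 15 against 13.11 to 13.67, and fibulin FBLN1 (2.33).

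Markers of the other cell types moved with tissue as well. Of 17 stromal markers 15 were higher in fat, with PRRX1 at least 5.76-fold and LGALS1 at -4.60. The 1 higher in liver was DPP4 (5.72, SE 0.145), a peptidase that hepatocytes also carry, at 11.90 to 12.91 against 6.08 to 7.26. Of 11 smooth muscle and pericyte markers 7 were higher in fat, with RGS5 at -3.36. Endothelial markers were called at shares near those of all named genes: 7 of 16 were higher in fat, among them VWF (-3.26) and PECAM1 (-2.21), and 4 in liver, FCGR2B (2.78), LYVE1 (1.11), TEK (1.0) and FCN2 (0.84), of which FCGR2B and LYVE1 are known from liver sinusoids. CDH5 (-0.06) and KDR (-0.10), general endothelial genes, did not pass.

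Immune markers were higher in liver. Of 15 macrophage markers 12 were higher in liver and none in fat, and their mean level was 9.55 to 10.23 in liver and 6.97 to 7.89 in fat. CD5L, a product of resident macrophages, was at least 89.6-fold higher in liver, at 12.73 to 13.37 against 5.50 to 6.71. CD14, the coreceptor for bacterial lipopolysaccharide that hepatocytes also make, had 11.90 to 12.87 in liver and 6.58 to 7.36 in fat (5.31, SE 0.131, adjusted p = 1.26e-19), and the scavenger receptor CD163 differed by 1.66. Of 17 lymphocyte markers 12 were higher in liver and none in fat, at small differences (median 0.91) and near background, with a mean level of 6.50 to 7.17 in liver and 5.41 to 6.10 in fat. Among them were JCHAIN, the joining chain of secreted antibodies (2.67), and CD4 (1.71). Of 11 genes of antigen presentation by class II, 3 were higher in liver and 3 in fat, against 27.9% and 38.6% of all named genes. Of 13 markers of bile duct and stellate cells, 7 were higher in liver, among them the duct markers KRT19 (3.12) and EPCAM (at least 3.56-fold), and 2 in fat, ANXA4 (-2.16) and RGS5 (-3.36), with a median of 1.40, or 0.00 with bounds.

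Liver-enriched transcription factors and patterning genes parted the tissues, and adipocyte factors as a list did so little. Of 15 liver-enriched factors 11 were higher in liver, with HNF4A at 12.36, 12.66 and 13.08 in liver and 5.94, 6.40 and 7.52 in fat (6.16, SE 0.173, adjusted p = 1.31e-18) and FOXA2 at least 15.2-fold. CEBPA, which serves both tissues, was higher in fat (-1.08, SE 0.203). Of 19 adipocyte factors and coregulators only 9 were higher in fat, led by PPARG and KLF4 (-4.31), and 5 were higher in liver. Those shares were near the 38.6% and 27.9% of all named genes, with a median of -0.29 against -0.13. Among the 5 higher in liver was PPARGC1A, a coactivator of gluconeogenesis and mitochondria. It had 9.24 to 10.78 in liver and 1.37 to 5.15 in fat, at least 9.62-fold. The nuclear receptor PPARA did not pass the test (-0.30). Of 8 patterning genes 7 were higher in fat, with HOXD8 at least 15.5-fold and the mesenchymal TWIST2 at least 5.77-fold, and only MEIS1 was higher in liver (1.87).

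Hormone carriers and receptors had no common direction. Of 25 insulin and growth hormone genes, 7 were higher in liver and 9 in fat, shares near the 27.9% and 38.6% of all named genes. IGFBP1, a binding protein that insulin represses, was at least 60.6-fold higher in liver, but ranged from 10.38 to 14.02 there, and IGFBP2 was higher in liver (4.78), while IGFBP6 (-4.78) and IGFBP5 (-2.71) were higher in fat. IGF1 had 8.85 to 10.62 in liver and 9.29 to 10.26 in fat (-0.18, SE 0.158, adjusted p = 0.336). Its 2 dimmer probe sets passed in opposite directions, at -0.76 (adjusted p = 0.00172) and 0.99 (adjusted p = 0.0304). The latter was near background, at 4.72 to 7.01 in liver and 3.52 to 6.74 in fat. GHR (0.00) and INSR (0.49) did not pass. Chemerin (RARRES2), counted among adipokines, was higher in liver (3.49). The fructose transporter SLC2A5 was at least 16.1-fold higher in fat, at 9.0, 10.66 and 11.63 against 2.04, 5.0 and 6.20, opposite to the fructokinase KHK. The amino acid carrier SLC36A2 was at least 23.4-fold higher in fat, the retinol-binding RBP7 at least 12.8-fold and the lipocalin SAL1 at least 97.8-fold, at 11.02 to 13.98 in fat. Of 21 genes of iron, copper and zinc, 15 were higher in liver, with transferrin (TF) at 8.37 and metallothionein MT1A at 8.50.

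General cell machinery differed little, and mostly by amounts that follow the scaling. Of 59 ribosomal protein genes 38 were higher in fat and 3 in liver, with a median of -0.25, but with median centring 10 were higher in fat and 8 in liver, and with quantile normalization 54 and 0. Of 57 oxidative phosphorylation genes 26 were higher in fat and 6 in liver (median -0.17), against 12 and 12 with median centring and 39 and 4 with quantile normalization. Of 38 proteasome genes 15 were higher in fat and 9 in liver, against 6 and 14 with median centring. The TCA cycle was less dependent, with 17 of 28 genes higher in fat and 6 in liver, and 13 and 7 with median centring. Citrate synthase (CS) differed by -2.06 and the pyruvate dehydrogenase subunit DLAT by -2.08. The secretory pathway leaned to liver under each scaling, with 38 of 58 genes higher in liver and 6 in fat. There the disulfide isomerase PDIA4 (2.34) and the chaperone HSPA5 (0.84) were higher in liver and SDF2L1, a partner of that chaperone, at least 7.21-fold.

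Skeletal muscle genes were called as fat genes on few arrays. Of 25 markers 16 were higher in fat and 1 in liver (median -2.10), against 8 and 2 without the 3 fat arrays with most muscle signal (median -0.52) and 7 and 4 without 6 of them (median 0.06). TNNC2, a troponin of fast fibres, had 4.59, 9.21 and 13.99 in fat and 0.79, 1.67 and 4.36 in liver (-7.34, SE 0.96, adjusted p = 6.82e-07), or -5.15 without 3 arrays and -4.25 without 6. The fast myosin MYH2 had -6.82, then -4.45 and -3.40. The 1 gene higher in liver was the widely expressed tropomyosin TPM3 (0.32), and 1 of its 3 probe sets gave -1.39.

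The spread between pigs within a tissue was read for the genes called at 4-fold. That choice favours a small spread, since a call weighs the difference against it. Over the 462 genes at least 4-fold higher in liver, the SD over the 10 liver arrays had a median of 0.308, and it was under 0.3 for 224 genes and over 1 for 25. Over the 421 genes at least 4-fold higher in fat, the SD over the fat arrays had a median of 0.374. It was under 0.3 for 136 genes and over 1 for 34. Its 12 highest values belonged to muscle genes such as TNNI2 (4.29), MYH2 (3.79) and MYLPF (3.49). In liver the most variable were GALP, a galanin-like peptide, at 5.29 to 11.95, and CYP2C36, at 3.01 to 9.81. The carbonyl reductase probe set CBR1 spanned 4.84 to 11.60, with 4 of 10 livers above a level of 9, as were 6 of 10 in restricted pigs. HAO1, the glycolate oxidase of peroxisomes, was at 5.63 on 1 liver array and at 12.54 to 13.67 on the other 9. The mannose-binding lectin MBL2 ranged from 10.04 to 13.35. GALP, CBR1, HAO1 and MBL2 were above 9 on 0 fat arrays of either diet.

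Whether the tissue difference depended on the RFI line was tested within the same fit, and no probe set passed (0 of 23999, 0.0%, smallest adjusted p 0.783 by limma). At an unadjusted p of 0.05, 863 of the 23999 probe sets passed, a smaller share than the 0.05 that this threshold gives by chance. The genes with the smallest p included FGF13, an intracellular relative of fibroblast growth factors, with a tissue difference of 1.27 in low and -1.17 in high RFI pigs (difference 2.44, SE 0.496), and MMD, a membrane protein named for macrophage differentiation, with -1.75 and -3.80 (2.05, SE 0.455). TMEM254 had 0.52 and -0.34, ST5 -1.32 and 0.48, TCEA3 0.71 and 1.92, AGXT2 7.32 and 6.15, the neuropeptide GAL 2.98 and -0.88 and the spermadhesin AWN -2.13 and 2.49. Leaving out single arrays gave 0 to 2 calls: 2 without fat high RFI array 3, and 1 each without liver low RFI array 2, liver high RFI array 1 and liver high RFI array 3, the last being FGF13. Without the 6 fat arrays with muscle signal 13 probe sets passed. In that fit the fat of the low RFI line rested on arrays 1 and 5 alone and that of the high RFI line on arrays 1 and 2.

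The tissue difference in fed pigs was then set against that in restricted pigs, whose arrays are separate. Over all probe sets the differences of the 2 diets correlated at 0.942, a description across probe sets on 1 array design. The difference itself changed with diet for 1308 probe sets (5.45%, limma on all 40 arrays), and among named genes it was lower in fed pigs, toward fat, for 478 (7.07%) and higher, toward liver, for 168 (2.48%). With median centring these were 580 and 103. Lower in fed pigs were 5 of 19 glycolytic genes, 5 of 10 NADPH-supplying genes and 4 of 22 genes of fatty acid synthesis, with 1 of the last list higher. SLC2A5 differed by -5.66 between tissues in fed pigs and by -2.78 (SE 0.425) in restricted pigs (change -2.88, SE 0.601, adjusted p = 0.00201). ME1 had -5.58 and -3.84 (change -1.73, adjusted p = 0.000443), FASN -1.90 and -0.38 (change -1.51, adjusted p = 0.0191) and hexokinase HK1 -2.81 and -1.74 (change -1.07, adjusted p = 0.000693). The citrate carrier SLC25A1 crossed 0, at -1.21 in fed and 0.90 in restricted pigs, and MPC2, a subunit of the mitochondrial pyruvate carrier, was at -1.46 and -0.05.

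Genes of the respiratory chain made up the largest count among the lists. Of 57 oxidative phosphorylation genes, 42 had a lower difference in fed pigs and none a higher one, with a median of -0.17 in fed and 0.41 in restricted pigs. Leaving out each of the 40 arrays in turn gave 40 to 45, median centring 44 and quantile normalization 42. On the arrays numbered 1 and 2 alone 12 passed, and on those numbered 3 to 5 alone 24, while the median change was -0.67 and -0.69 there and -0.67 over all. The TCA cycle had 13 of 28 lower, the proteasome 17 of 38, the secretory pathway 18 of 58 and branched-chain amino acid breakdown 8 of 18, and none of these 4 had a member called higher. The other way went 9 of 44 matrix genes, such as COL6A3 (-3.56 in fed, -4.60 in restricted), with 2 of the 44 lower in fed pigs, and 5 of 23 complement components (3 with median centring). DPP4 differed by 5.72 in fed and 4.42 in restricted pigs, PGLYRP2, a liver amidase of bacterial cell walls, was lower in fed (1.28) than in restricted pigs (4.37), and CPT1A differed by 0.96 in fed and 0.00 in restricted pigs. One restricted fat array carried hepatocyte signal, and without it the named counts were 432 and 150, with CD5L changing by 0.99 in place of 1.20. The muscle marker mean on restricted fat was 12.38, 9.5, 9.51 and 10.9 on low RFI arrays 1 to 4. It was 9.19 and 10.77 on high RFI arrays 1 and 4, and 5.65 to 6.62 on the rest. None of the 25 muscle markers was called as changed by diet. The diet contrast was not refitted without those arrays together, and the part of muscle signal in it was not tested.

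**Figure D5:**
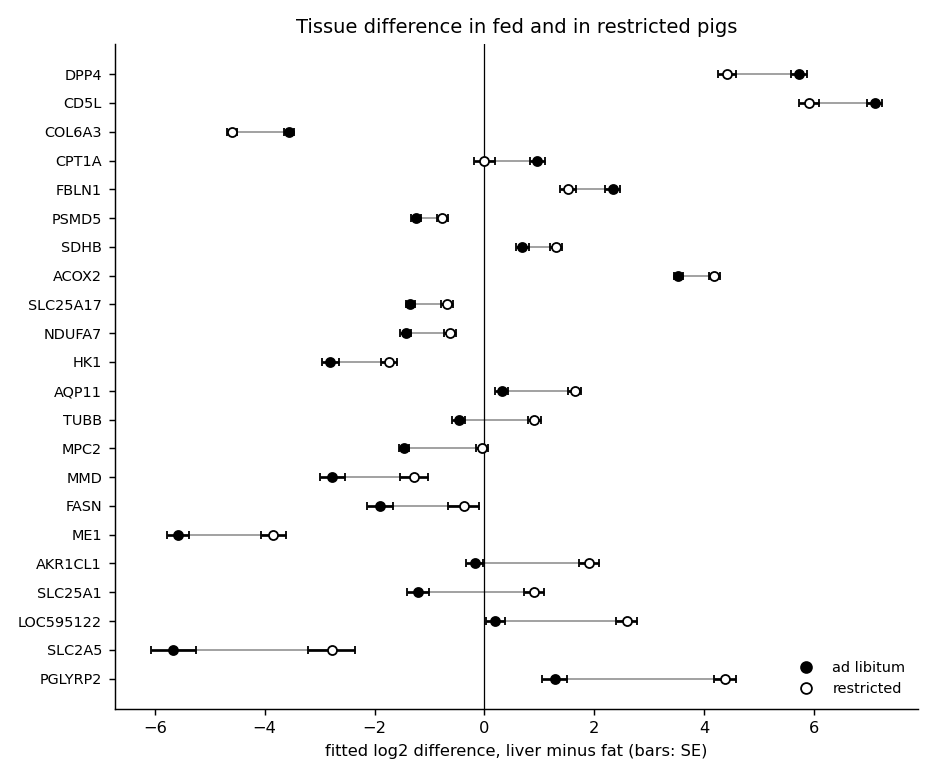
Log2 difference, liver minus fat, ± SE, in fed (filled) and restricted (open) pigs for 22 genes whose difference changed with diet, 10 arrays per tissue and diet. Filled points lie left of open ones for 17 genes, among them SLC2A5, SLC25A1, PGLYRP2 and LOC595122, and right of them for CD5L, COL6A3, CPT1A, DPP4 and FBLN1.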

How the data were processed

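RNA of 20 liver and 20 backfat samples was hybridised to Affymetrix pig arrays. Values are intensity per probe set as deposited by the authors on a linear scale. The submitters' processing notes name affy and MAS5, without version or role, and each array's 2% trimmed mean lay near 500.1. The log2 of each intensity was taken with no offset and no filter on low values. The 4 group means of the 20 ad libitum arrays were fitted by limma (version 3.58.1, R 4.3.3), with eBayes moderation that follows an intensity trend, with liver minus fat averaged over lines and, in the same fit, the difference of that contrast between lines. The diet contrast used all 40 arrays and 8 group means. P-values were adjusted by Benjamini-Hochberg over all 23999 non-control probe sets, at 0.05. The fit was tested on simulated data.

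Symbols came from GEO's platform annotation: 10069 probe sets had 1 symbol, 198 had several and 13732 were unnamed, and 9961 of the single-symbol sets matched an Entrez ID of the reference table. A gene was its single-symbol probe set with the highest mean over the 20 arrays. The 49 lists and the arrays compared were chosen with earlier results of these data known, so lists carry counts and medians and no test. The naming rule took the 15 genes with the largest difference each way (without LOC symbols), the largest called member of each list each way, every gene of 18 isoform pairs with 16 further genes, and the 8 genes with the smallest p by line and by diet. Other list members named as examples were chosen after their values were seen.

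Numbers 1 to 5 within a line were checked for pairing: over 14938 probe sets, liver and fat arrays of the same line and number deviated together in all 10 pairs (correlations 0.11 to 0.26), although 13 of 20 arrays correlated best with their own number and the labels name no pig. No pair of the 40 arrays correlated above 0.9461, so none was counted as a duplicate. Alternatives were other scalings, filters, an offset, no trend, the replicate block, control ratios as covariates, subsets by number, other probe set rules and each array left out. Leaving out fat arrays with muscle signal was chosen after seeing the data, as was leaving out single arrays of the diet contrast. The number of arrays limits the precision.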

Additional observations from a re-analysis of the deposited data

Results flagged for a closer look

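The tissue difference changed between fed and restricted pigs, by the test of that change itself, for 22 of the 141 named genes. Of these, 8 had been named for the smallest p in this same test, so the count is raised by the choice. Over all 6765 genes with a symbol, 7.07% changed toward fat and 2.48% toward liver. Toward fat in fed pigs the change on the log2 scale was -3.09 for PGLYRP2, -2.88 for SLC2A5, -2.39 for LOC595122, -2.11 for SLC25A1, -2.10 for AKR1CL1, -1.73 for ME1, -1.51 for FASN and -1.49 for MMD. It was -1.41 for MPC2, -1.38 for TUBB, -1.33 for AQP11, -1.07 for HK1, -0.80 for NDUFA7, -0.66 for SLC25A17, -0.65 for ACOX2, -0.61 for SDHB and -0.47 for PSMD5. Toward liver it was 1.30 for DPP4, 1.20 for CD5L, 1.04 for COL6A3, 0.96 for CPT1A and 0.80 for FBLN1. Each kept an adjusted p below 0.05 when any 1 of the 40 arrays was left out, except PSMD5, which lost it in 28 of 40.

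Of 282 gene and tissue groups of 10 arrays, 19 had an array far from the other 9, where chance gives about 1 in 20. Liver high RFI array 3 was the lowest liver for 5 genes: TTR at 14.56, APOA2 at 14.14, SERPIND1 at 13.93, FBP1 at 13.68 and MGST3 at 12.63. Liver low RFI array 4 was the lowest for HAO1, at 5.63 with the next liver at 12.54, for AQP11 at 9.06 and for SLC2A4 at 2.93. Liver high RFI array 1 was the highest liver for PRRX1 at 4.96.

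In fat, high RFI array 1 was the highest for HMGCS1 at 10.38 and SDF2L1 at 6.36 and the lowest for FGG at 1.90. High RFI array 2 was the highest for PTGFR at 10.63. High RFI array 3 was the lowest for ME1 at 12.59 and SDHB at 12.18. Low RFI array 2 was the lowest for ABCC6 at 5.70 and CEBPA at 8.41, low RFI array 4 the lowest for GC at 2.47, and low RFI array 5 the highest for MEIS1 at 8.95. FGG, GC, SLC2A4, PRRX1 and SDF2L1 were at or near background in those tissues.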

How the results depend on the processing

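Of 125 named genes, 113 kept their direction and their side of the threshold in all 33 settings of the tissue contrast. The replicate block gave 5337 probe sets higher in liver and 8874 in fat and changed no call of a named gene. With the filter at the 60th percentile 8979 probe sets were called, 5538 higher in fat and 974 by 4-fold or more, of 11593 tested. An offset before the log gave 898 probe sets 4-fold higher in fat. The contrast by line gave 3 calls on numbers 3 to 5, 13 without the 6 fat arrays with muscle signal and 0 to 2 with single arrays left out. The diet contrast gave 173 calls on numbers 1 and 2 and 455 on numbers 3 to 5, with fewer arrays. With background at the 20th percentile 100 probe sets were above it in all livers only and 61 in all fat only, and at the 60th percentile 523 in all fat only. Direction reversed with median centring for the list medians of oxidative phosphorylation (0.05), endothelial markers (0.04), class II presentation (0.07) and the proteasome (0.06), with the 60th percentile filter for insulin signalling (-0.31), and without the 6 fat arrays for skeletal muscle markers (0.06) and PYGM (0.27). The median of the solute carriers, -0.02, read 0.09 with quantile normalization, 0.20 with median centring, 0.02 with the 40th percentile filter, 0.03 with the offset, 0.10 with covariates, 0.02 and 0.12 by numbers, 0.22 with the mean over probe sets and -0.10 to 0.20 without single arrays. The mean over probe sets turned ORM1 to 4.52 and TPM3 to -0.24. Except where the construction shows it, the cause was not tested.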
